A study of Mus musculus with 6 samples.

Results

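Transcripts of 9 genes of the thick ascending limb (TAL) were followed across the cell classes of mouse renal cortex. The genes were *Slc12a1*, *Umod*, *Egf*, *Kcnj1*, *Bsnd*, *Cldn10*, *Cldn16*, *Cldn19* and *Casr*, chosen by symbol for their place in salt transport and the paracellular pathway of this segment, and they were 9 of 26903 genes in the count matrices. All 9 were present in each of the 6 libraries. Single cells had been captured on the BD Rhapsody system, where each transcript is counted by its unique molecular identifier (UMI). The libraries came from renal cortex of mice aged 9 months, 3 wild type (WT) and 3 in which *Prdm16* was knocked out globally (KO), 1 mouse a library, all labelled male. According to the methods of the study, CRISPR-Cas9 removed an exon near the start of *Prdm16* and shifted the reading frame, in every cell of the animal and from conception, so that an effect within the TAL cannot be told apart from one of other organs.

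The TAL takes up sodium, potassium and chloride through the apical cotransporter encoded by *Slc12a1*, while the channel encoded by *Kcnj1* returns potassium to the lumen. *Bsnd* encodes barttin, an accessory membrane protein needed for salt transport in this segment. The resulting lumen-positive voltage drives cations between the cells, through pores of claudin-10 for sodium and of claudin-16 with claudin-19 for calcium and magnesium. The calcium-sensing receptor, encoded by *Casr*, restrains this pathway. Uromodulin (*Umod*) and the precursor of epidermal growth factor (*Egf*) are membrane-anchored products of the same tubule that reach the urine.

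Cells were kept at 500 to 60000 UMIs, 200 to 8000 genes and at most 50% mitochondrial UMIs, and 28488 cells fell into 28 clusters that were named from marker genes without the 9 genes described here. Total UMIs per library ranged from 96382945 to 121198131. Pairs of libraries shared 0 to 5 barcodes. The X-linked transcript *Xist* was found in WT replicate 2 (297 CPM, UMIs scaled to a common library total) and likewise in KO replicate 1 (306 CPM), whose Y-linked transcripts summed to at most 0.0613 CPM, although both were labelled male. Over all retained cells *Prdm16* itself had levels of 32.4, 26.7 and 27.1 (WT) against 21.0, 24.9 and 23.4 CPM (KO), and counts per gene, which do not show the exon, do not check the deletion.

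Clusters 3 and 9 carried the TAL markers, with 12 of 12 detected in each, and together held 3567 TAL-like cells. The 3 WT libraries held 578, 558 and 591 of them, the 3 KO libraries 597, 569 and 674. Classes rebuilt without a mitochondrial limit held 2351, 2026 and 2001 (WT) and 1672, 1834 and 2341 TAL-like cells (KO). The 50% limit thus kept a minority of such cells. Cluster 3 had 2170 cells at a median of 1790 UMIs and was led by *Col5a2*, *Cldn16* and *Egf*, and cluster 9 had 1397 cells at a median of 17712 UMIs and was led by *Nccrp1*, *Cldn10* and *Egfl6*. A cluster of 364 macula densa-like cells, the sensor cells at the end of the TAL, was led by *Nos1*, *Pappa2* and *Ptgs2*, with 69, 63 and 57 from the WT libraries against 73, 46 and 56 from KO. The TAL-like share was 11.8 ± 1.11% for WT against 14.2 ± 4.77% for KO (SD, n = 3), a difference within the spread of the KO libraries (two-sided exact permutation p = 0.6).

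The promoters of the 4 members that the results below turn on, *Umod*, *Egf*, *Cldn10* and *Cldn16*, are shown from 250 bases before to 50 bases after the gene start, 5′ to 3′ on the strand of the gene. Sequences are from RefSeq on GRCm38.p6. Capitals mark GTTAAT, a half-site of the hepatocyte nuclear factor 1 motif, or its reverse complement ATTAAC. For *Egf* and *Cldn10*, which have 2 annotated starts each, the upstream start is given.
Umod, chr7:119479213-119479512, minus strand: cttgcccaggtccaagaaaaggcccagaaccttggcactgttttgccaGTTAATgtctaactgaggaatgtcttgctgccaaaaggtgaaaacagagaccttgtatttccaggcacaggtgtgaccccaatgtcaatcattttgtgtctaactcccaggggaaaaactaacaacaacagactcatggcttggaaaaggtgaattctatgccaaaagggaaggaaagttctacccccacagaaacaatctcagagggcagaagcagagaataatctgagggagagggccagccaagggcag
Egf, chr3:129755273-129755572, minus strand: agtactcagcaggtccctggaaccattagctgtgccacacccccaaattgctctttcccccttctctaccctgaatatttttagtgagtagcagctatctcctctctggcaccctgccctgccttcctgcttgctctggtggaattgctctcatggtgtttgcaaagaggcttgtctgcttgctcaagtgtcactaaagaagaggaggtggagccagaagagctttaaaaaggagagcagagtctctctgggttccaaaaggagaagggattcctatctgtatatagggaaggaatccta
Cldn10, chr14:118787621-118787920, plus strand: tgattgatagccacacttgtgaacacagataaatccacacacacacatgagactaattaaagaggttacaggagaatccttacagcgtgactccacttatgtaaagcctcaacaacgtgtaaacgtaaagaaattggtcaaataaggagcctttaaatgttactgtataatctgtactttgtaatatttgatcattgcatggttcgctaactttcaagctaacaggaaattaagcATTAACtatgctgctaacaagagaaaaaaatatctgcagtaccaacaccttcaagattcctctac
Cldn16, chr16:26462885-26463184, plus strand: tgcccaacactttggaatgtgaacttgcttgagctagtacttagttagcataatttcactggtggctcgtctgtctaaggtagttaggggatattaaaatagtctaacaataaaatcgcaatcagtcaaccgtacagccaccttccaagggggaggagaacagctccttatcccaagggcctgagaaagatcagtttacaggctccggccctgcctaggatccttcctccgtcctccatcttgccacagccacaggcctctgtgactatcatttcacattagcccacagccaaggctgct
The half-site stood 202 bases before the start of *Umod* and 15 bases before the upstream start of *Cldn10*. Promoter entries were matched for 8 of the 9 members, 11 entries in all, and 2 of the 11 held these letters on either strand, against 7.10% of all 32851 promoters. A match of letters is a description of the sequence and not a bound site. The counts do not separate the 2 starts of *Cldn10*, of which the downstream one is at chromosome 14, 118854700 to 118854999.

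Levels over the 13 classes that held 10 cells or more per library are descriptive, since the classes were made from the same cells. Of the 9 genes, 7 had their highest mean in TAL-like cells. *Slc12a1* was at 5172 ± 257 CPM in TAL-like and 4108 ± 250 CPM in macula densa-like cells (SD, n = 6), ranges that did not overlap, and at 1111 ± 765 CPM in thin limb-like cells, where single libraries ran from 17 to 1987 CPM. The thin limb-like class of 306 cells is named with less certainty. Its mean standardised marker level was 3.55 for thin limb and 3.01 for urothelial markers, and its 10 leading genes held 2 of each list. Distal convoluted tubule-like (DCT-like) cells, the next segment downstream, had 38.9 ± 16.4 CPM, below the 81.7 ± 28.2 CPM of endothelial-like cells. The cotransporter was thus highest in TAL-like and then in macula densa-like cells.

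**Figure D1:**
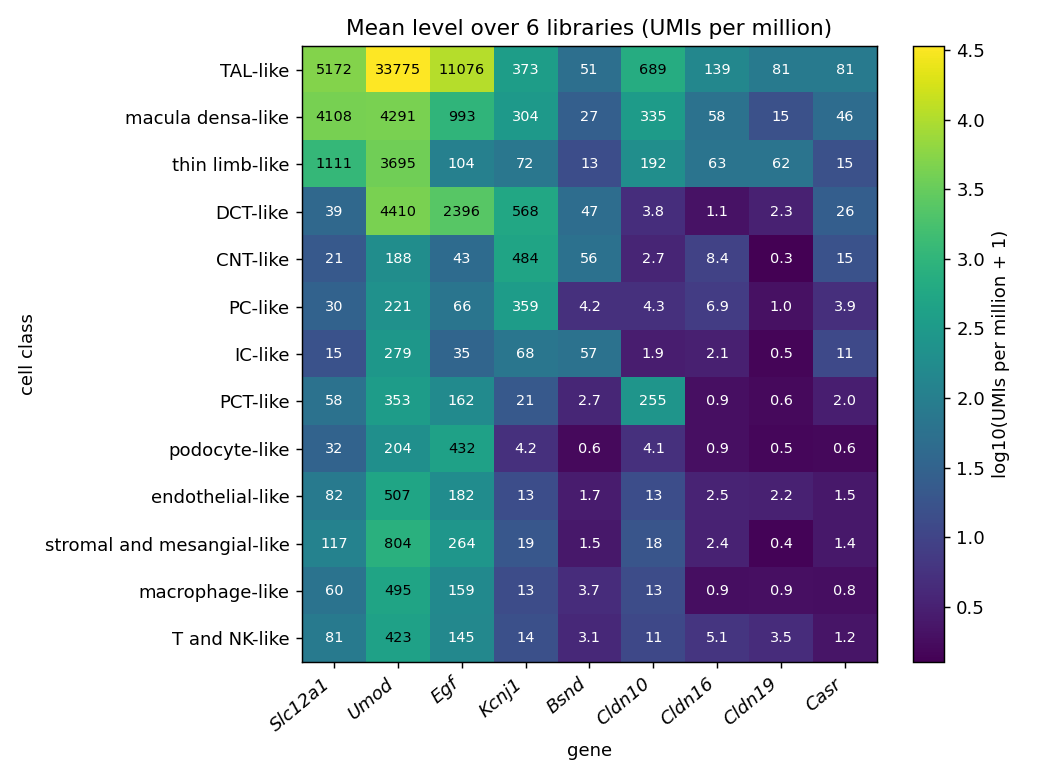
Mean level of each gene (columns) in each of 13 cell classes (rows), in CPM averaged over 6 libraries, with colour on a log10 scale. *Umod* reaches 33775 in TAL-like cells and stays above 150 in every class, while *Cldn16* and *Cldn19* fall below 10 outside TAL-like, macula densa-like and thin limb-like cells.

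*Umod* was at 33775 ± 3513 CPM in TAL-like cells, 7.66-fold the mean of the next class. DCT-like (4410 ± 1940), macula densa-like (4291 ± 1448) and thin limb-like cells (3695 ± 2106 CPM) overlapped in their ranges and could not be ordered. *Egf* was at 11076 ± 2118 CPM in TAL-like, 2396 ± 227 in DCT-like, 993 ± 471 in macula densa-like and 432 ± 110 CPM in podocyte-like cells, and each of these ranges was separate from the next down to podocyte-like cells. DCT-like cells thus held both secreted products at over 2000 CPM with *Slc12a1* below the mean of endothelial-like cells.

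Free RNA sets a floor under these levels. Barcodes of 10 to 100 UMIs, taken as free RNA, had 4771 to 8103 CPM of *Umod* and a *Umod* to *Egf* ratio of 2.45 in WT and 3.80 in KO on average. Endothelial-like cells, which should lack both, had *Umod* UMIs in 33.1% of cells thinned to 1500 UMIs (41.9% before thinning) against 99.8% of TAL-like cells (98.6%), at median depths of 1341 and 7744 UMIs. The ratio was 2.57 (median of 6 libraries) in endothelial-like cells, 0.50 in podocyte-like cells and 1.58 in DCT-like cells. Podocyte-like cells were the class with the lowest ratio, with *Egf* UMIs in 43.0% of thinned cells against 16.4% in endothelial-like cells, and *Slc12a1* UMIs in 4.8% against 8.5%. The thinning left out 1068 TAL-like, 2895 endothelial-like and 794 podocyte-like cells.

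*Kcnj1* and *Bsnd* were not highest in TAL-like cells. *Kcnj1* was at 568 ± 52.3 CPM in DCT-like, 484 ± 66.4 in connecting tubule-like (CNT-like), 373 ± 39.3 in TAL-like, 359 ± 64.3 in principal cell-like (PC-like) and 304 ± 37.0 CPM in macula densa-like cells. The first and second overlapped, as did the third with the fourth and the fourth with the fifth. *Bsnd* was at 57.3 ± 11.2 CPM in intercalated cell-like (IC-like), 55.7 ± 9.93 in CNT-like, 50.9 ± 13.2 in TAL-like and 47.0 ± 5.59 CPM in DCT-like cells, with ranges that overlapped, and at 4.18 CPM in PC-like cells. The potassium channel was thus shared with principal cells and barttin with intercalated cells.

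The claudins differed from one another. *Cldn10* was at 689 ± 107 CPM in TAL-like, 335 ± 78.2 in macula densa-like, 255 ± 65.3 in proximal convoluted tubule-like (PCT-like) and 192 ± 174 CPM in thin limb-like cells, and the last 3 overlapped. *Cldn16* was at 139 ± 14.2 CPM in TAL-like cells, 62.6 ± 36.1 in thin limb-like and 57.8 ± 27.3 CPM in macula densa-like cells. *Cldn19* was at 80.5 ± 8.0 and 62.5 ± 33.8 CPM in TAL-like and thin limb-like cells, which overlapped, but at 14.7 ± 7.17 CPM in macula densa-like cells. The sensor cells thus had lower mean levels of both claudins of the calcium and magnesium pathway than TAL-like cells. *Casr* was at 80.5 ± 5.87 CPM in TAL-like and 45.9 ± 11 CPM in macula densa-like cells, followed by DCT-like cells at 26.1 ± 4.46 CPM.

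The genes most like each member over the 13 classes, among 10182 genes at 20 CPM or more in at least 1 class, are named by Pearson's r of log2(mean CPM + 1), as a description without a test. They were *Eprn*, *Irx1* and *Enox1* for *Slc12a1* (0.97, 0.96 and 0.96), *Gm44588*, *Gp2* and *Hesx1* for *Umod* (0.98, 0.96 and 0.95), and *Gpx6*, *Gm44588* and *Ppp1r1b* for *Egf* (0.90, 0.85 and 0.84). *Prom2*, *Prdm16os* and *Tfap2b* were most like *Kcnj1* (0.97 each), and *Tmem72*, *Wnk4* and *Impa2* most like *Bsnd* (0.94, 0.92 and 0.91). *Slc9a3*, *Slc5a1* and *Gm15889* were nearest *Cldn10* (0.97, 0.96 and 0.94), *Zcchc18*, *Enox1* and *Cldn19* nearest *Cldn16* (0.90, 0.90 and 0.89), *Ak7*, *Slc34a2* and *Sim2* nearest *Cldn19* (0.98, 0.94 and 0.91), and *Kng2*, *Tmem72* and *Sostdc1* nearest *Casr* (0.98, 0.97 and 0.95). *Enox1*, *Ppp1r1b*, *Kng2* and *Sostdc1* had also served to name TAL-like cells.

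The comparison of KO with WT asked whether the loss of *Prdm16* changed these transcripts within TAL-like cells. *Egf* fell and the other 8 genes did not pass the test. In WT its levels were 12882, 13918 and 11820 CPM, and in KO 8531, 9723 and 9581 CPM. All KO libraries were below all WT libraries, a log2 fold change of −0.47 (SE 0.085, edgeR quasi-likelihood test with Benjamini-Hochberg adjusted p = 0.00685). Among all 10775 genes tested in TAL-like cells 465 were called (4.32%), 228 higher and 237 lower in KO, against 1 of the 9 members. The call was lost at a mitochondrial limit of 30% (−0.40, adjusted p = 0.154), in the 4 libraries without *Xist* (−0.34, 0.0574) and in Cldn10-only cells, defined below (−0.41, 0.122).

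**Figure D2:**
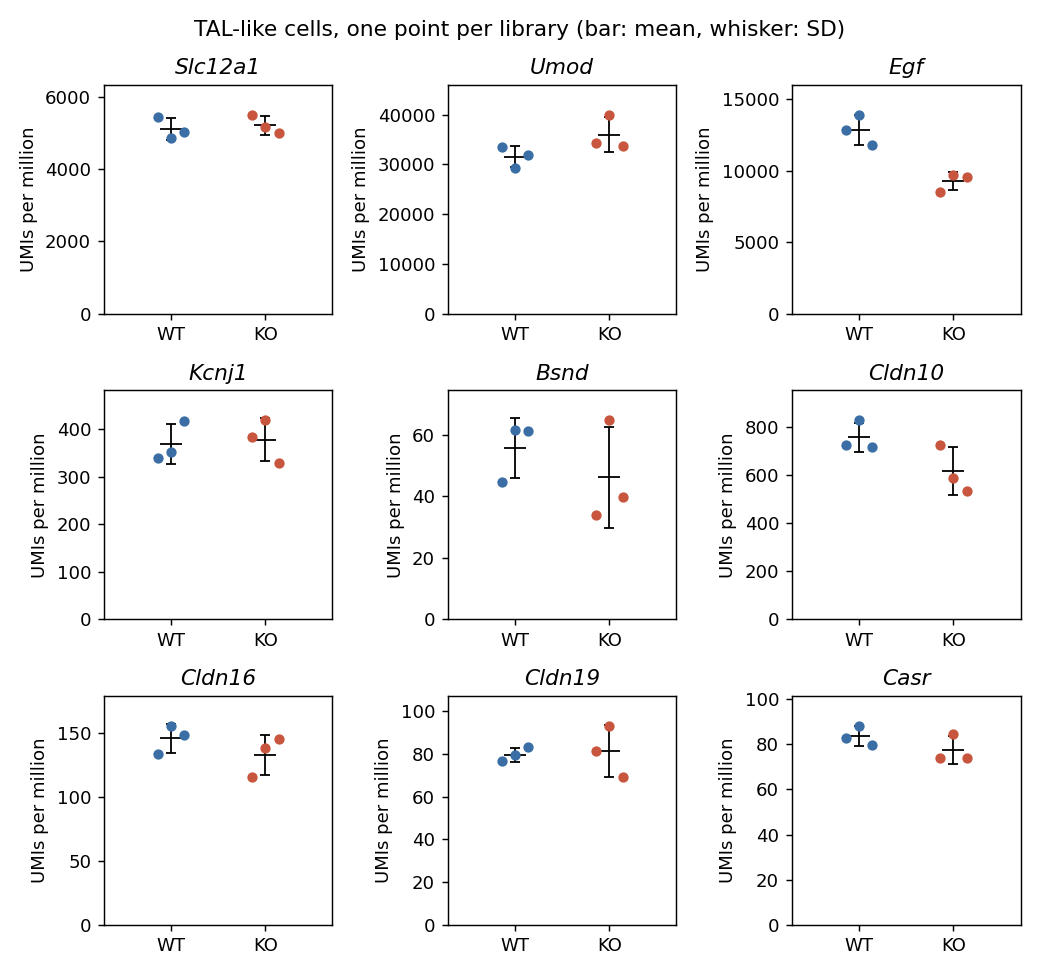
Level of each of the 9 genes in TAL-like cells, in CPM on linear axes from 0, for 3 WT and 3 KO libraries (points), with the mean (bar) and SD (whisker). *Egf* in KO lies between 8531 and 9723, below the WT range of 11820 to 13918, and the groups of *Slc12a1*, *Kcnj1* and *Cldn19* overlap.

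*Umod* had 33412, 29351 and 31917 (WT) against 34207, 39970 and 33791 CPM (KO), groups that did not overlap but whose difference missed the threshold (0.19, SE 0.082, edgeR adjusted p = 0.262). *Cldn10* had 728, 829 and 720 (WT) against 728, 590 and 536 CPM (KO; −0.30, SE 0.10, adjusted p = 0.137). The lowest *Cldn10* values were in KO replicates 2 and 3, and the call was made in cluster 3 alone (−0.92, 0.000774), with a block for *Xist* libraries (−0.31, 0.0398) and without a filter on low counts (−0.30, 0.0171).

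*Slc12a1* ran from 4878 to 5454 CPM in WT and from 4996 to 5509 CPM in KO (0.03, SE 0.073), and *Kcnj1* from 340 to 418 and from 329 to 418 CPM (0.02, SE 0.11). For *Bsnd* the ranges were 44.5 to 61.7 and 33.7 to 64.7 CPM (−0.28, SE 0.20). *Cldn16* ranged over 133 to 156 CPM (WT) and 115 to 145 CPM (KO; −0.13, SE 0.11), *Cldn19* over 76.7 to 83.2 and 69.0 to 93.3 CPM (0.02, SE 0.11), and *Casr* over 79.5 to 88.3 and 73.8 to 84.6 CPM (−0.11, SE 0.095). The adjusted p of these 6 ran upward from 0.559. The cotransporter, the potassium channel and claudin-19 thus differed by at most 0.03 on the log2 scale, with standard errors of 0.073 to 0.11.

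A list of dissociation stress genes moved with genotype in the same cells, with a summed level of 9410 to 11911 CPM in WT and 13572 to 16123 CPM in KO, and its part in the fall of *Egf* was not tested. Median depth (2696 to 9335 UMIs in WT and 3647 to 12946 in KO) and mitochondrial share (41.5 to 43.1% and 39.7 to 43.8%) overlapped. The TAL markers that named the class summed to 6006 to 6276 CPM in WT and 5210 to 5644 CPM in KO, with 5 of 12 separate and lower in KO, 1 separate and higher (*Foxq1*, 110 to 118 against 171 to 218 CPM) and 0 at 0 in every library. Markers of principal cells summed to 29.5 to 35.1 CPM in WT and 11.5 to 22.7 CPM in KO, with 3 of 6 separate between groups and 1 at 0 in every library, and those of intercalated cells to 29.3 to 41.7 and 54.2 to 128 CPM, with 1 of 8 separate and 0 at 0 in every library. Neutrophil markers summed to 0.40 to 0.97 and 2.16 to 8.09 CPM, with 4 of 6 separate. A gene with separate groups has a two-sided exact permutation p of only 0.1 at 3 against 3 libraries. The share of all genes that were separate is not given, so counts of separate markers, here and below, are descriptions. The part of these markers was not tested.

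Other genes of TAL function were read from a list of 73, of which 65 were tested and 4 called, 2 higher and 2 lower, beside the 4.32% of all genes. The median log2 fold change was −0.03 over the list and −0.00 over all genes tested. *Rap1gap*, a GTPase-activating protein of the small GTPase Rap1, rose, with 77.4, 72.5 and 66.9 (WT) against 119, 120 and 106 CPM (KO; 0.67, SE 0.090, edgeR adjusted p = 0.00126). *Ptger3*, the receptor through which prostaglandin E2 opposes vasopressin, fell from 186, 171 and 152 CPM to a range of 92.2 to 103 CPM (−0.78, SE 0.094, adjusted p = 0.000541).

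*Gcgr*, the glucagon receptor, fell from 31.8, 32.5 and 30.4 to 17.8, 22 and 19.9 CPM (−0.66, SE 0.12, adjusted p = 0.00829). *Irx3*, a homeobox factor, rose from 31.8, 31.5 and 32.6 to 46.4, 41.1 and 39.8 CPM (0.40, SE 0.10, adjusted p = 0.0456), and lost its call in 17 alternatives, including each library left out. Over all settings its log2 fold change ran from 0.0066 to 0.76. *Irx3* was at 94.7 CPM in Cldn16-only and 1.94 CPM in Cldn10-only cells, defined below, and the part of their mix was not tested. The call of *Gcgr* was lost at 1500 UMIs (adjusted p = 0.601), in the 4 libraries without *Xist* (0.104) and in Cldn10-only or Cldn16-only cells (0.0769 and 0.0679). That of *Rap1gap* was lost at the 30% limit (0.250), at 1500 UMIs (0.0813) and in Cldn10-only cells (0.0769), and that of *Ptger3* at the 30% limit (0.144). By sub-list, 0 of 11 salt transport, 1 of 9 kinase and scaffold, 0 of 9 junction, 2 of 9 hormone and calcium signalling, 0 of 9 magnesium and calcium, 0 of 8 uromodulin and 1 of 10 transcription factor genes were called. *Ptger3* was also a marker used to name TAL-like cells.

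In macula densa-like cells 3 of the 9 members were called, against 69 of 6302 genes tested (1.09%). *Umod* rose, with 4091, 2906 and 2282 (WT) against 5562, 5161 and 5745 CPM (KO; 0.87, SE 0.16, edgeR adjusted p = 0.00475). *Egf* fell from 1781, 1314 and 932 to 596, 593 and 740 CPM (−1.02, SE 0.18, adjusted p = 0.00367), and *Cldn16* fell from 83.8, 65.1 and 94.2 to 29.1, 38.2 and 36.2 CPM (−1.17, SE 0.23, adjusted p = 0.00992). In all 3 genes the groups were separate.

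*Slc12a1* in the same cells ran from 3832 to 4520 CPM in WT and from 4081 to 4221 CPM in KO (0.07), and the summed macula densa markers ran from 1089 to 1353 and from 1055 to 1323 CPM, with 1 of 5 at 0 in every library and 2 separate in opposite directions, *Pappa2* (201 to 293 against 350 to 720 CPM) and *Avpr1a* (70.9 to 117 against 18.2 to 25.4 CPM). *Cldn10* had 307, 318 and 216 (WT) against 353, 455 and 360 CPM (KO; 0.50, SE 0.17, adjusted p = 0.199), separate but not called. The *Umod* to *Egf* ratio was 2.32 in WT, close to the 2.45 of free RNA, and 8.60 in KO, against 3.80. Proximal tubule markers in these cells summed to 10.3 to 37.7 CPM in WT and 0 to 5.46 CPM in KO, with 0 of 10 separate and 3 at 0 in every library. Stromal and mesangial markers summed to 2.83 to 3.87 and 0 to 1.82 CPM (1 of 10 separate, 7 at 0), and monocyte markers to 1.41 to 5.16 and 0 to 1.21 CPM (1 of 5 separate, 2 at 0). Of the connecting tubule and principal cell markers *Klk1* (2899 to 3225 against 3585 to 5303 CPM) and *Hsd11b2* (22.3 to 87.7 against 16.4 to 18.1 CPM) were separate, as was 1 more of 6 in each list. TAL markers summed to 2844 to 3232 CPM in WT and 2626 to 2990 CPM in KO, which overlapped, with 4 of 12 separate and 1 at 0 in every library. The part of these markers was not tested. These cells also held *Umod* above the 333 to 654 CPM of endothelial-like cells in every library, while free RNA had 4771 to 8103 CPM. *Egf* in free RNA was at 2901, 2251 and 2309 CPM (WT) against 1298, 1650 and 2565 CPM (KO), above its levels in these cells. The part of free RNA was not tested. Classes rebuilt from single-cell marker scores ended all 3 calls (*Umod* 0.43, *Egf* −1.29, *Cldn16* −1.43, adjusted p = 0.727, 0.181 and 0.303), and so did the 4 libraries without *Xist* (0.84, −0.96 and −1.19, adjusted p = 0.0752, 0.0567 and 0.0522). Without KO replicate 2 the call of *Egf* was lost (0.0571), and without WT replicate 3 (0.0593) or KO replicate 1 (0.0568) that of *Cldn16*, as with DESeq2 (0.0565).

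**Figure D3:**
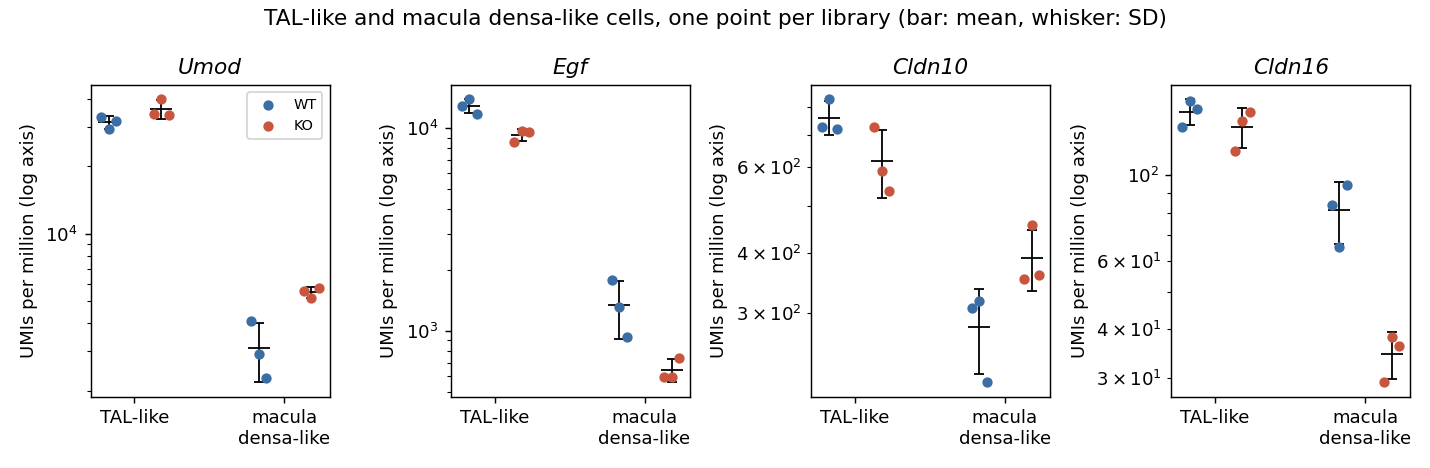
Levels of *Umod*, *Egf*, *Cldn10* and *Cldn16* in TAL-like and macula densa-like cells, in CPM on log axes, for 3 WT (blue) and 3 KO (red) libraries, with the mean (bar) and SD (whisker). In macula densa-like cells *Umod* rises to 5161 to 5745 and *Cldn16* falls to 29.1 to 38.2 in KO, and in TAL-like cells *Cldn16* overlaps between groups.

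The difference between the 2 classes in the response to genotype was tested itself, with the library as a block, a comparison added after these values were seen. It was called for 3 of 9 members and for 49 of 9832 genes (0.498%). The effect in macula densa-like cells exceeded that in TAL-like cells by 0.72 for *Umod* (SE 0.13, edgeR adjusted p = 0.00032) and by 0.82 for *Cldn10* (SE 0.16, adjusted p = 0.00106), and was lower by −1.06 for *Cldn16* (SE 0.23, adjusted p = 0.0124). *Egf* differed by −0.51 (SE 0.14, adjusted p = 0.0714) and was not called. *Cldn10* was called in neither class alone. The call of *Cldn10* was lost without KO replicate 2 (0.70, adjusted p = 0.0579), and that of *Cldn16* on leaving out any one of 4 libraries, WT replicate 1 or 3 or KO replicate 1 or 3 (adjusted p from 0.0648 to 0.129).

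Outside the TAL, the 11 other classes tested gave 7 member calls, the 3 above among them. In podocyte-like cells *Egf* fell from 531, 578 and 473 CPM to 317, 346 and 345 CPM (−0.66, SE 0.11, edgeR adjusted p = 0.0122), 1 of 5 members tested against 1.69% of 10334 genes. The median depth of these cells was also lower in KO (2662 to 3474 UMIs against 4388 to 5384), and their mitochondrial share was higher (13.7 to 13.9% against 10.9 to 11.9%). Podocyte markers summed to 24895 to 28965 CPM in WT and 20362 to 22964 CPM in KO (4 of 8 separate, 0 at 0), and neutrophil markers to 0.53 to 1.68 and 6.42 to 25.9 CPM (3 of 6 separate, 0 at 0). *Egf* in free RNA was at 2251 to 2901 CPM in WT and 1298 to 2565 CPM in KO, which overlap. The part of these values was not tested. The call was lost without WT replicate 1 (0.0533), without WT replicate 2 (0.0695) and in the 4 libraries without *Xist* (0.105).

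In CNT-like cells *Cldn16* rose from 3.6, 5.41 and 3.87 to 13.2, 11.7 and 12.4 CPM (1.54, SE 0.26, adjusted p = 0.00443), 1 of 8 members against 2.84% of 10121 genes. Markers of the connecting tubule itself summed to 43666 to 54395 CPM in WT and 34725 to 41578 CPM in KO (2 of 6 separate), and TAL markers to 1168 to 1385 and 715 to 798 CPM (6 of 12 separate), with none of either list at 0 in every library. Intercalated cell (76.2 to 106 against 36.0 to 52.9 CPM, 5 of 8) and macula densa markers (2.46 to 3.38 against 0.47 to 1.30 CPM, 1 of 5) were also lower in KO, and podocyte (52.1 to 70.4 against 83.5 to 121 CPM, 1 of 8), monocyte (0 to 1.35 against 4.14 to 26.0 CPM, 1 of 5) and urothelial markers (0.35 to 3.16 against 3.25 to 5.14 CPM, 1 of 5) higher. The part of these markers was not tested. In PC-like cells *Cldn16* rose from 1.12, 4.75 and 1.14 to 12, 7.28 and 15.1 CPM (2.31, SE 0.50, adjusted p = 0.029), 1 of 7 members against 2.6% of 9806 genes. In TAL-like cells *Cldn16* was at 115 CPM or more, and free RNA held 22.3 to 24.2 CPM of *Cldn16* in WT and 15.9 to 29.8 CPM in KO, which overlap. PC-like cells were also fewer in KO, at 164 to 320 a library against 478 to 520, and their stress genes summed to 12822 to 16608 CPM against 8937 to 10610 CPM. Monocyte (1.87 to 11.5 against 40.6 to 102 CPM, 1 of 5 separate), neutrophil (1.12 to 2.38 against 2.79 to 16.3 CPM, 2 of 6) and urothelial markers (7.13 to 16 against 18.4 to 52.4 CPM, 1 of 5) were higher in KO by their sums, and proximal tubule markers lower (11.2 to 123 against 3.12 to 9.48 CPM, 0 of 10). Their own markers overlapped in sum (15264 to 16448 and 10777 to 20727 CPM), with 4 of 6 separate. The part of these values was not tested. The call in PC-like cells was lost without any one of 5 libraries (WT replicates 1 and 3 and each KO replicate), with adjusted p up to 0.165.

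*Kcnj1* fell in IC-like cells from 105, 96.7 and 85.1 to 30.3, 30.8 and 59.1 CPM (−1.22, SE 0.24, adjusted p = 0.0484), 1 of 6 members against 0.613% of 10447 genes. The 11 alternatives that ended this call included the replicate number as a block (0.105) and leaving out any one of 5 libraries, all but KO replicate 3 (0.102 to 0.215). In IC-like cells the markers of principal cells, in which *Kcnj1* is also found, summed to 2113 to 3074 CPM in WT and 990 to 1842 CPM in KO (5 of 6 separate, 0 at 0), and TAL markers to 760 to 883 and 658 to 721 CPM (3 of 12 separate, 0 at 0). Markers of the connecting tubule, where *Kcnj1* is found as well, summed to 10547 to 13383 CPM in WT and 4422 to 10843 CPM in KO. These sums overlapped, with 2 of 6 markers separate and 0 at 0. Macrophage (11.9 to 14.4 against 5.49 to 11 CPM, 2 of 6) and urothelial markers (2.38 to 11.3 against 0.26 to 2.33 CPM, 2 of 5) were lower in KO and neutrophil markers higher (0.24 to 0.43 against 0.81 to 12.6 CPM, 2 of 6). The part of these markers was not tested. *Kcnj1* in free RNA was at 174 to 204 CPM in WT and 141 to 177 CPM in KO.

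No member was called by edgeR in DCT-like cells (0 of 7, 1 at an unadjusted p under 0.05, against 1.22% of all genes). *Umod* there had 3709, 2114 and 3902 (WT) against 7415, 6009 and 3308 CPM (KO; 0.78, adjusted p = 0.164), with KO replicate 3 inside the WT range, and without that library the adjusted p was 0.0315. Calls of members were likewise 0 in endothelial-like (0.194% of all genes called), macrophage-like (0.455%), stromal and mesangial-like (0.0516%), T and NK-like (0.0253%) and thin limb-like cells (0%, with 328 genes at an unadjusted p under 0.05), where 1 member, in stromal and mesangial-like cells, was at an unadjusted p under 0.05. Over all cells summed, 0 of 9 members were called, and 0 were at an unadjusted p under 0.05, against 1.07% of 15178 genes.

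Claudin-10 and claudin-16 are known from different cells of the TAL. Of the 3567 TAL-like cells, 1022 had UMIs of *Cldn10* but not *Cldn16* (Cldn10-only), 839 of *Cldn16* but not *Cldn10* (Cldn16-only), 862 of both and 844 of neither. Median depths were 3248, 12926, 18987 and 868 UMIs, so that depth decides part of this split. In 2077 cells thinned to 3000 UMIs, 57.9% had *Cldn10* and 30.4% had *Cldn16*. Both were found in 10%, where independence would give 17.6%. The correlation of the 2 claudins over these cells was −0.33, the mean of 6 libraries, against 0.06 for *Cldn16* with *Cldn19* and 0.29 for *Umod* with *Cldn10*.

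Free RNA held 92.9 to 147 CPM of *Cldn10* and 15.9 to 29.8 CPM of *Cldn16*. Thinned to 1500 UMIs, 1.3% and 0.2% of endothelial-like cells held them, against 48.5% and 19.0% of TAL-like cells. Unthinned CNT-like cells, at a median of 7892 UMIs, held them in 1.4% and 6.5%. The part of free RNA in cells with both claudins was not tested. In 1656 TAL-like cells of 10000 UMIs or more, *Cldn10* was at 0 in 32.8% and *Cldn16* in 24.3%, although cells with *Cldn10* held a median of 20 of its UMIs and those with *Cldn16* a median of 3.

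Cldn16-only and Cldn10-only cells differed in 1169 of 7963 genes (14.7%), 563 higher and 606 lower in Cldn16-only cells, and in 5 of the 7 members that did not define them. *Casr* was higher in Cldn16-only cells, at 105 ± 9.29 against 68.9 ± 12.7 CPM (SD, n = 6) and in 6 of 6 libraries (log2 fold change 0.63, SE 0.090, edgeR adjusted p = 2.12e-06). *Egf* was higher at 12661 ± 2988 against 10055 ± 2214 CPM (0.33, SE 0.049, adjusted p = 4.25e-06, 6 of 6), as was *Cldn19* at 91.0 ± 8.08 against 77.0 ± 11.4 CPM (0.27, SE 0.091, adjusted p = 0.0424, 6 of 6).

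*Umod* was lower in Cldn16-only cells, at 29612 ± 4745 against 36783 ± 3014 CPM (−0.32, SE 0.045, adjusted p = 1.3e-06, lower in 6 of 6 libraries), and *Kcnj1* at 336 ± 20.9 against 391 ± 57.3 CPM (−0.21, SE 0.068, adjusted p = 0.0331). *Slc12a1* (0.06) and *Bsnd* (−0.01) were not called. Where cells were thinned to 1500 UMIs before the split, *Umod* was the only member called (−0.37, adjusted p = 0.000288), and at a mitochondrial limit of 30% no member was, by edgeR. *Casr* and *Cldn19* were thus called higher in Cldn16-only cells at full depth, and at equal depth *Casr* (0.24, adjusted p = 0.680) and *Cldn19* (−0.02, 0.986) were not called.

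**Figure D4:**
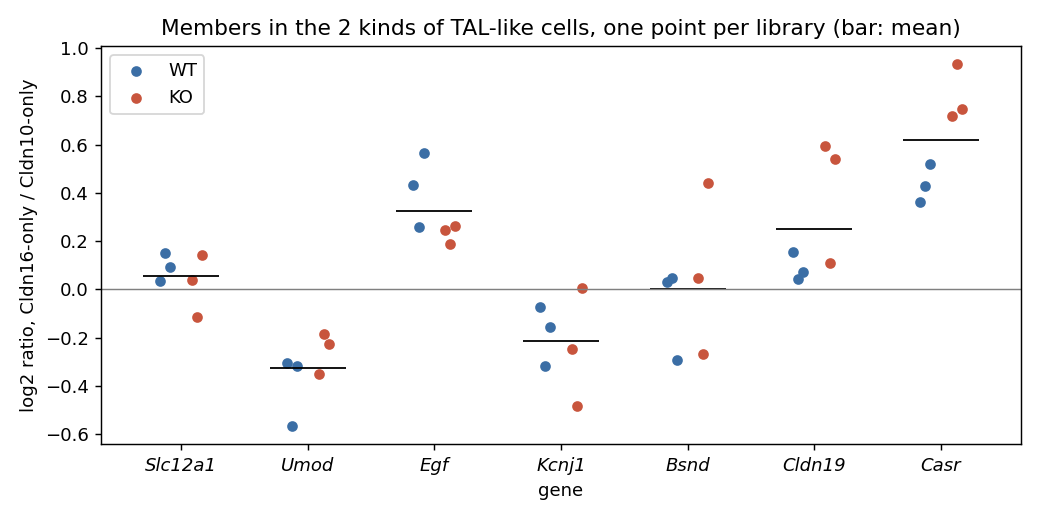
log2 ratio of the level in Cldn16-only to that in Cldn10-only TAL-like cells for 7 genes, one point per library (3 WT in blue, 3 KO in red), with the mean over 6 libraries as a bar and equality as the grey line. *Casr*, *Egf* and *Cldn19* lie above the line in 6 of 6 libraries and *Umod* below it in 6 of 6.

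The genes that differed most included homeobox factors and receptors. *Trhr* (6.47), *Irx5* (6.37), *Irx3* (5.45), *Tmem52b* (5.22) and *Scarf2* (4.78) were highest in Cldn16-only cells by log2 fold change. *Esam* (−6.80), *Pla2g7* (−6.78), *Eprn* (−6.27), *Ptger3* (−4.75) and *Irx1* (−4.63) were highest in Cldn10-only cells, each in 6 of 6 libraries. *Tmem52b* was at 1169 ± 203 against 30.3 ± 14.0 CPM, and *Irx1* at 11.7 ± 3.20 against 295 ± 38.8 CPM. The homeobox genes *Irx3* and *Irx1* therefore marked opposite kinds at full depth, and *Irx1* kept its call in the split at equal depth (−2.41, adjusted p = 4.15e-14). *Irx3* kept its call in the 15 alternatives that gave it a value, against 17 for *Irx1*, and no equal-depth value of *Irx3* is given.

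Of the 73 related genes 59 were tested between the kinds, and 16 were higher and 15 lower in Cldn16-only cells, beside the 14.7% of all genes called. The 3 with the largest rise were *Irx3*, *Kcnj10* (134 against 7.66 CPM, 4.15), a basolateral potassium channel, and *Wnk1* (656 against 149 CPM, 2.15), a kinase upstream of the cotransporter. *Pth1r*, the parathyroid hormone receptor, was at 298 against 71.5 CPM (2.08). *Wnk4*, another kinase of this pathway, was lower (72.2 against 158 CPM, −1.11). *Kcnj10*, *Wnk1*, *Pth1r* and *Wnk4* were chosen from the list after their values were seen.

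The effect of genotype was not shown to differ between the kinds. By edgeR 0 of 7 members and 13 of 7963 genes (0.163%) passed the interaction test, with 2 members at an unadjusted p under 0.05. *Casr* differed by 0.36 (adjusted p = 0.684) and *Egf* by −0.19 (adjusted p = 0.684). At 1500 UMIs Cldn16-only cells were 21.3 ± 3.19% in WT and 26.3 ± 4.10% in KO of the cells with 1 of the 2 claudins (SD, n = 3), which overlapped (two-sided exact permutation p = 0.3).

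Cells with both claudins took a smaller share in every KO library at the 50% mitochondrial limit. At 3000 UMIs their shares among TAL-like cells were 13, 16.4 and 11.8% (WT) against 5.16, 7.04 and 7.92% (KO), a difference of −7.02 percentage points. The groups were separate, with a two-sided exact permutation p = 0.1, the smallest that 3 against 3 libraries allow. They were also separate at 1000, 1500 and full depth, and among cells of 10000 UMIs or more both were found in 50.5, 59.5 and 51.7% in WT and 33.6, 38.4 and 35.3% in KO. These cells of 10000 UMIs or more were not thinned and were shallower in KO. Their median depths ran from 19451 to 22876.5 UMIs in WT and from 17107 to 18640 UMIs in KO, and the part of depth was not tested. At a mitochondrial limit of 30%, with 21 to 76 cells a library left at 1500 UMIs, the groups overlapped, at 13.2, 11.6 and 6.35% (WT) against 1.59, 7.89 and 4.76% (KO; two-sided exact permutation p = 0.2). At 3000 UMIs *Cldn10* was found in 58.9 to 65.4% of cells in WT and 51.6 to 58.1% in KO, and cells with neither claudin were 19.0 ± 3.46% and 24.3 ± 2.90%, separate at this depth and at 1000 UMIs but overlapping at 1500 UMIs and unthinned. *Cldn16* was found in 31.2 to 35.8% in WT and 23.9 to 31.3% in KO at 3000 UMIs. Independence would give both in 18.4 to 23.4% and 13.9 to 17.1% of cells. The observed shares were 0.64 to 0.70 (WT) and 0.37 to 0.49 (KO) of these. The part of the detection of each claudin was not tested.

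**Figure D5:**
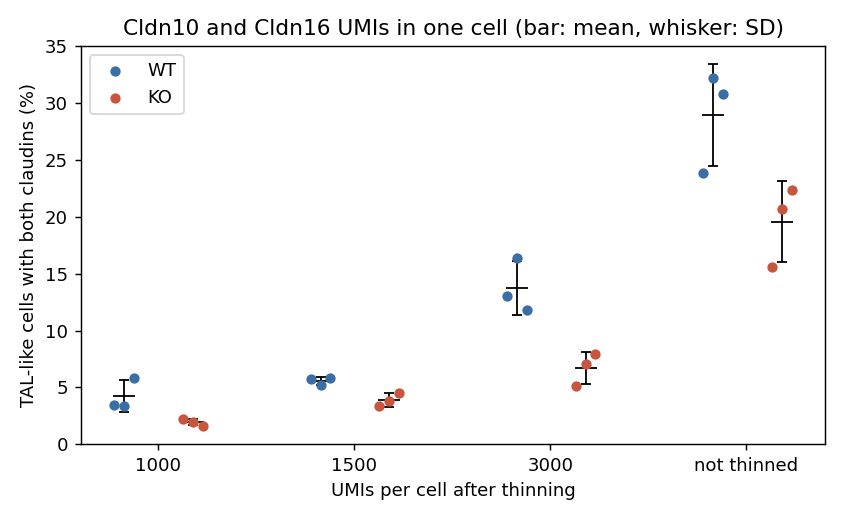
Share of TAL-like cells with at least 1 UMI of both *Cldn10* and *Cldn16*, in percent, after thinning to 1000, 1500 or 3000 UMIs per cell and without thinning, for 3 WT (blue) and 3 KO (red) libraries, with the mean (bar) and SD (whisker). All KO points lie below all WT points at each depth, at 5.16 to 7.92% against 11.8 to 16.4% at 3000 UMIs.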

How the data were processed

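The authors deposited raw UMI counts per gene and barcode for 6 libraries (mm10), neither normalised nor filtered for cells, and their own analysis used Scanpy 1.8. Coordinates here are those of the GRCm38.p6 promoter table, counted from 1. Scrublet's automatic threshold marked 0.0747 to 0.292% of cells and had not worked, so the top 6% of scores were removed in every library. Cells were clustered with scanpy 1.11.5 (2000 variable genes without the members, 30 principal components, 15 neighbours, Leiden resolution 1.0) and named from 121 markers in 17 lists, and 2 clusters stayed unnamed. Names are rebuilt and can differ from those of the study. Counts were summed per library and class and tested with edgeR 4.0.16 (TMM, filterByExpr at a minimum count of 10, two-sided, Benjamini-Hochberg over all genes, threshold 0.05) where every library had 20 cells, and DESeq2 1.42.0 was an alternative. The 2 kinds of TAL-like cells were compared with the library as a block. The fits were tested on simulated data. The members and lists were chosen with earlier results of these data known. Named genes were the members, up to 3 called genes per related sub-list, the 3 most alike over classes, and the 5 largest differences between kinds in each direction with the same sign in 6 libraries. Precision is limited by 3 mice a group, and p-values measure the spread between libraries of 1 mouse each.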

Additional observations from a re-analysis of the deposited data

Results flagged for a closer look

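For 3 genes the response to genotype differed between macula densa-like and TAL-like cells in an interaction test of edgeR with the library as a block. The log2 fold change of KO against WT was higher in macula densa-like cells by 0.72 for *Umod* and by 0.82 for *Cldn10*, and it differed by −1.06 for *Cldn16*. In this test the call of *Cldn10* was lost without KO replicate 2 (0.70, adjusted p = 0.0579). That of *Cldn16* was lost on leaving out WT replicate 1 (−0.97, 0.113) or 3 (−0.98, 0.0710), or KO replicate 1 (−1.07, 0.0648) or 3 (−1.01, 0.129). The call of *Umod* was made in all 7 alternatives run, which included each library left out. For *Umod* in macula densa-like cells alone 17 alternatives were run, and 2 of them ended its call. These were classes from marker scores (edgeR adjusted p = 0.727) and the 4 libraries without *Xist*. The 7 alternatives do not cover the same range of settings. The macula densa-like class held 46 to 73 cells a library.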

How the results depend on the processing

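Replicate numbers did not pair the mice (correlations of same-numbered deviations 0.02, −0.12 and −0.08). With the replicate number as a block the members called in TAL-like cells were 1, those in other classes 6 and the related genes 4. The calls of *Irx3* (adjusted p = 0.0898) and of *Kcnj1* in IC-like cells were then lost. The automatic doublet threshold, planned only where it marked at least 0.5% of cells, applied to no library. That setting therefore removed the top 6% of scores, as the main one did, and could not differ from it. Members called in TAL-like cells (1) became 0 at a 30% mitochondrial limit, in the 4 libraries without *Xist* and in Cldn10-only cells, 2 with a block for *Xist* libraries and in cluster 3 alone, and 3 without a filter on low counts. Related genes called (4) became 0, 2, 2, 7 and 11 at the 30% limit, in the 4 libraries, in Cldn10-only cells, in cluster 3 and without a filter, and 1 at 1500 UMIs. Calls in other classes (7) became 1 at the 30% limit, 2 in the 4 libraries, 4 with marker scores, 17 without a filter and 4 to 8 with each library left out, and over all cells 1 at the 30% limit. A class with fewer than 20 cells in any library under a setting was not fitted there and added 0 to the count for other classes. Macula densa-like cells were fitted in 17 alternatives and podocyte-like cells in 19, so a lower count is not always a lost call. Members called between the kinds (5) became 0 at the 30% limit, 3 with DESeq2, 1 at 1500 UMIs and 3 to 5 with each library left out. The cause was not tested.

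Uncalled values near 0 changed sign. In TAL-like cells *Slc12a1* was at −0.0029 without a mitochondrial limit, −0.029 in the 4 libraries, −0.023 at 1500 UMIs, −0.012 in cluster 3, −0.055 in Cldn16-only cells and −0.0092 to 0.066 with each library left out. *Kcnj1* was at −0.0036 without a mitochondrial limit, −0.010 in the 4 libraries, −0.0048 at 1500 UMIs, −0.028 in Cldn16-only cells and −0.056 to 0.13 with each library left out, *Cldn16* at 0.022 in the 4 libraries, and *Cldn19* at −0.33 at the 30% limit, −0.014 in cluster 9, −0.20 in Cldn10-only cells and −0.088 to 0.12 with each library left out. Between kinds, *Bsnd* was at 0.25 without a mitochondrial limit (called), 0.011 without doublet removal, 0.0090 at resolution 2.0, 0.025 with marker scores, 0.019 without a filter, 0.039 for 2 or more UMIs, and −0.12 to 0.069 with each library left out, and *Cldn19* at −0.015 at 1500 UMIs. The share of TAL-like cells changed by −0.062 on the log2 scale at the 30% limit and by −0.00029 to 0.49 with each library left out. The Cldn16-only share differed by −1.37 points with marker scores, −0.73 at 1000 UMIs and 0.73 unthinned, and cells with both claudins by −2.29 at 1000, −1.66 at 1500 and −9.40 points unthinned.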
